A study of Homo sapiens with 6 samples.

Results

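Translation initiation and elongation factors are the proteins that load ribosomes onto mRNA, find the start codon and drive each step of peptide synthesis. Their genes were taken from the deposited gene table as every name that begins with EIF and a digit from 1 to 6, or with EEF and a digit from 1 to 2. Names of argonautes (EIF2C), names of eIF2α kinases (EIF2AK) and names ending in P and a number were left out. This gave 52 of the 22152 rows of the table, and 36 further names were set aside, 30 of them pseudogene names, 4 kinases and 2 eIF4E-binding proteins.

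The RNA came from HaCaT, an immortalized line of human skin keratinocytes that grows in culture. Cells received either a synthetic negative control microRNA (NC mimic, 3 libraries) or a synthetic copy of miR-21-3p (miR-21-3p mimic, 3 libraries), each at 1 nM, and RNA was taken 48 h later. Polyadenylated RNA was sequenced with a strand-specific kit, and the labels call the 3 libraries of each group biological replicates. The comparison asks how the transcriptome of keratinocytes with added miR-21-3p differs from that of cells with the control. All the cells belong to 1 line, so n counts transfected cultures. miR-21-3p is the other strand of the hairpin that also yields miR-21-5p.

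In a eukaryotic cell, eIF2 brings the initiator tRNA to the small ribosomal subunit as a GTP-bound complex, and eIF2B recharges it with GTP after each round. eIF3 holds the small subunit open and bridges it to the mRNA, and the eIF4 group binds the cap and unwinds the leader. eIF5B joins the subunits, after which eEF1 delivers aminoacyl-tRNA, eIF5A relieves stalls, and eEF2 moves the ribosome along. Dividing epithelial cells such as basal keratinocytes carry high levels of this machinery.

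Values were normalized counts, that is, reads per gene divided by a size factor for each library. The table implied 24802261, 24976223 and 27981281 reads assigned to genes in miR-21-3p replicates 1, 2 and 3, and 24402946, 24529424 and 26173244 in NC replicates 1, 2 and 3. Depth was thus similar across the 6 libraries. Among the keratinocyte markers, KRT5, a basal keratin, was at 135000, 139000 and 125000 with the miR-21-3p mimic and at 139000, 123000 and 130000 with the NC mimic. Of 9 keratinocyte markers listed, 8 had a row and 2 were called higher, KRT6A and SFN. KRT6A had a log2 fold change of 0.34 (limma adjusted p = 0.0011), and SFN one of 0.15 (limma adjusted p = 0.0483). The SFN call held without NC replicate 2 (limma adjusted p = 0.0182) and ended without any other single library, the limma adjusted p then being 0.133, 0.0763 and 0.145 without miR-21-3p replicates 1, 2 and 3, and 0.109 and 0.22 without NC replicates 1 and 3. TP63, the basal keratinocyte transcription factor, lay the other way, at 6860, 7120 and 6460 against 7490, 7180 and 7680. All its treated libraries were below the controls without a call (log2 fold change -0.13, limma adjusted p = 0.101), and it was called lower without NC replicate 2 (limma adjusted p = 0.0431). KRT14, another basal keratin, had overlapping groups and a log2 fold change of -0.07 (limma adjusted p = 0.486). Outside the list, the basal keratin KRT15 had means of 76033 with the miR-21-3p mimic and 95367 with the NC mimic. It was called lower (log2 fold change -0.33, limma adjusted p = 0.00374). The keratins KRT8 and KRT18, also outside the list, were called higher (log2 fold changes 0.24 and 0.26, limma adjusted p = 0.0184 and 0.00638). DSP, a desmosome protein, was at 58200, 60100 and 56800 against 54600, 55000 and 56700, all treated libraries narrowly above the controls without a call (log2 fold change 0.07, limma adjusted p = 0.3). KRT16 was at 192 to 241 over the 6 libraries, a lower count than that of COL1A1 or VWF. DSG3 and KRT16 had overlapping groups and log2 fold changes of 0.08 and 0.01 (limma adjusted p = 0.333 and 0.951). Of the 6 fibroblast markers listed, 1 had a row, COL1A1, at 372, 378 and 364 with the miR-21-3p mimic and 560, 390 and 478 with the NC mimic. Its treated libraries were all below the controls, NC replicate 2 being the closest. The log2 fold change of -0.34 (SE 0.11) was not called (limma adjusted p = 0.0614), and it was called lower without NC replicate 2 (limma adjusted p = 0.000999). VWF, an endothelial marker, was at 712 to 801 over the 6 libraries and PMEL, a melanocyte marker, at 120 to 155, with overlapping groups and no call. CDH5, an endothelial cadherin outside the list, had means of 155 with the miR-21-3p mimic and 385 with the NC mimic. It was called lower (log2 fold change -1.30, limma adjusted p = 0.00584). The part of these markers in the differences between the factor genes was not tested. The listed markers without a row, KRT17 among them, were not analysed here. A change in RNA per cell and a change in the makeup of the culture cannot be told apart in bulk RNA.

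The libraries of the control group were not equally close to each other. Over 12173 genes with a mean of at least 100, the root mean square log2 difference between NC replicates 2 and 1 was 0.20, and between NC replicates 2 and 3 it was 0.17. NC replicate 2 was at 0.18, 0.16 and 0.18 from miR-21-3p replicates 1, 2 and 3. Against the same 3 libraries, NC replicate 1 was at 0.26, 0.23 and 0.29, and NC replicate 3 at 0.21, 0.20 and 0.26. NC replicate 2 was therefore about as close to the treated libraries as to its own group, and where a call turns on 1 library the value without it is given.

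With limma on log2(value + 1) and an adjusted p threshold of 0.05, 9 of the 50 members that passed the filter on low values were called higher with the miR-21-3p mimic, 0 were called lower and 41 were not called. Over all 14795 genes tested, 11.1% were called, 6.25% higher and 4.85% lower. The members called were EIF5A, EIF2B3, EEF1B2, EIF2S2, EIF5AL1, EIF3B, EIF3I, EIF5B and EIF2S1, and their log2 fold changes lay between 0.18 and 0.46. Their share of 18.0% called higher stands beside 6.25% for all genes, and no test was made of the list. Before adjustment, 17 of the 50 members had a limma p under 0.05 with higher values and 1, EEF2K, with lower values. Of all genes tested, 15.4% had such a p with higher and 13.3% with lower values. edgeR on recovered reads with TMM factors called 8 members higher and 0 lower (6.12% of all genes higher), and DESeq2 called 7 higher and 0 lower (6.13% of all genes higher). The median log2 fold change over the 50 members was 0.05, against 0.004 over all genes tested. It was positive for 36 members and negative for 14, where 7551 of all genes tested were positive and 7244 negative. The groups did not overlap for 19 members (38.0%), 17 with all miR-21-3p libraries above all NC libraries and 2 with all below. Among all 14795 genes tested the groups did not overlap for 31.3%, with 2438 genes above and 2186 below. The difference between the members and all genes was not tested.

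The number of calls rested on single libraries. Without miR-21-3p replicate 1, 1 member of 50 was called higher, without replicate 2 there were 8, and without replicate 3 there was 1. In the same fits 1.10%, 6.37% and 1.47% of all genes were called higher. Leaving out NC replicate 1 gave 2 members called higher, leaving out NC replicate 2 gave 15, and leaving out NC replicate 3 gave 0, where 2.43%, 11.3% and 1.01% of all genes were called higher. The low counts of members thus came with low counts over the whole table, and 1 or 2 members of 50 are near the share of all genes. Without NC replicate 3, limma called 257 genes over the whole table in either direction, against 1641 with all libraries and 3054 without NC replicate 2. For each of the 9 called members NC replicate 2 was the highest of the 3 control libraries, as it was for 76.5% of the 924 genes called higher in the whole table. All 9 had positive log2 fold changes in each of the 16 alternative settings that held their row, the left-out libraries included (15 settings for EIF5AL1, whose reads were merged with EIF5A in the other). EIF2S2 was called in 15 of these settings, EIF3I in 13, EIF3B and EEF1B2 in 12, EIF5A in 11, EIF2S1 in 10, EIF5B in 8, EIF2B3 in 7 and EIF5AL1 in 6. The 9 were picked as higher in these same libraries, so their positive signs add no support. For all of them but EIF5AL1 the groups did not overlap, so leaving out 1 library could not turn the sign.

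**Figure D1:**
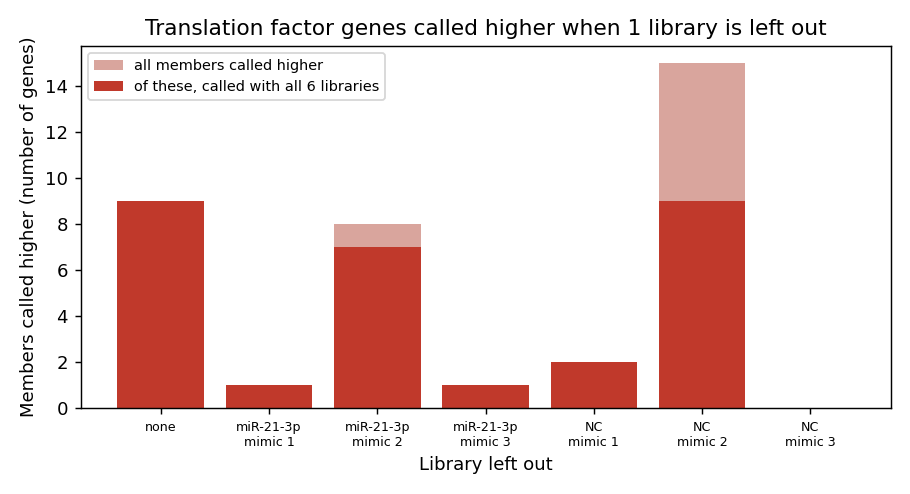
Number of translation factor genes called higher by limma (vertical axis, genes) with all 6 libraries and with each library left out (horizontal axis). Dark bars count genes that were also called with all libraries; the count runs from 0 without NC replicate 3 to 15 without NC replicate 2.

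**Figure D2:**
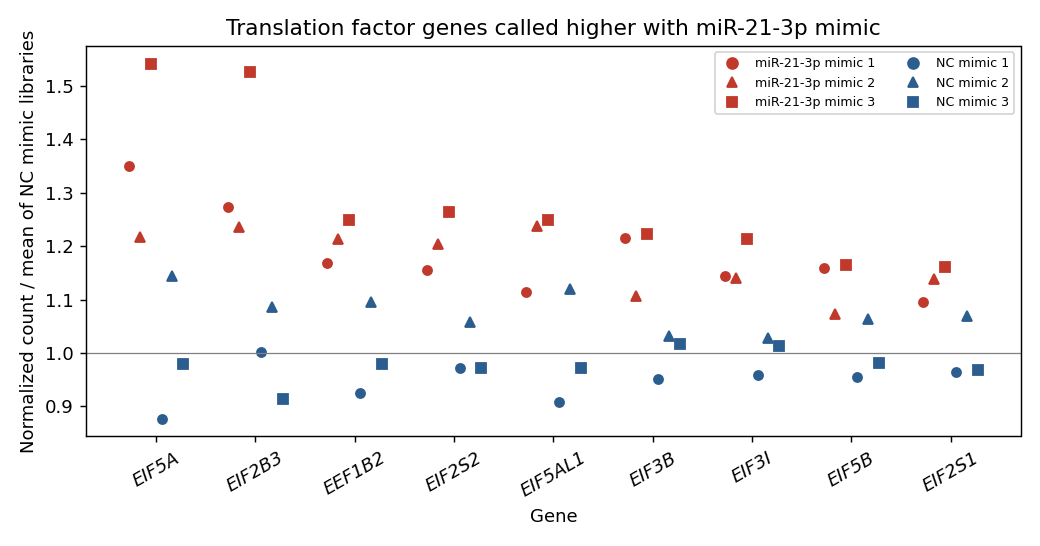
Normalized count of each of the 9 called genes in each library, divided by the mean of the 3 NC mimic libraries (vertical axis, ratio; grey line at 1). Each point is 1 library, red for the miR-21-3p mimic and blue for the NC mimic, and the NC replicate 2 triangle is the highest blue point for every gene.

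The eIF2 trimer and its exchange factor eIF2B had 3 called members of 9 tested (EIF2S2, EIF2S1 and EIF2B3), with a median log2 fold change of 0.16. The 3 are 33.3%, where 6.25% of all genes tested were called higher. The difference was not tested, and so small a count is not a result about these complexes. EIF2S2 encodes the β subunit of eIF2, which contacts the start-codon machinery. It stood at 2130, 2220 and 2330 normalized counts in miR-21-3p replicates 1, 2 and 3 and at 1790, 1950 and 1790 in the NC replicates. The treated libraries were all above the control libraries, the closest pair being miR-21-3p replicate 1 and NC replicate 2. EIF2S2 rose by 0.27 on the log2 scale (SE 0.05, limma adjusted p = 0.00895, higher in 3 of 3 libraries), and only without NC replicate 3 did the limma adjusted p exceed 0.05, at 0.0628. More reads lay in rows named as its pseudogenes than in its own row, 55.3% of the sum, and the sum of EIF2S2 and 2 such rows gave 0.25 (limma adjusted p = 0.00929). EIF2S2P4 itself, at 2560, 2590 and 2760 against 2130, 2340 and 2220, was called higher (log2 fold change 0.24, limma adjusted p = 0.013), a call that ended without miR-21-3p replicate 1 (0.0537), without miR-21-3p replicate 3 (0.0655) and without NC replicate 3 (0.068). Reads that fit both the gene and such a copy may have been assigned to either.

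EIF2S1 encodes the α subunit, the one that stress kinases phosphorylate. Its values were 3010, 3130 and 3190 with the miR-21-3p mimic and 2650, 2940 and 2660 with the NC mimic. The groups did not overlap, but NC replicate 2 lay near the lowest treated library. The log2 fold change was 0.18 (SE 0.05, limma adjusted p = 0.0411). This call held without NC replicate 2 (limma adjusted p = 0.00428). It ended without miR-21-3p replicates 1, 2 or 3 (0.101, 0.0812 and 0.143) and without NC replicates 1 or 3 (0.125 and 0.178). With a replicate block the limma adjusted p was 0.0764. The γ subunit gene EIF2S3, which encodes the GTP-binding subunit, ranged from 2920 to 3050 with the miR-21-3p mimic and from 2850 to 3020 with the NC mimic. Its groups overlapped, as did those of the related EIF2S3L, and their log2 fold changes were 0.03 and -0.01.

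Among the eIF2B genes, EIF2B3 encodes the γ subunit, which forms its catalytic core together with EIF2B5. It was measured at 136, 132 and 163 in the treated libraries and at 107, 116 and 97.6 in the controls. At these low counts all treated libraries were above all controls, with miR-21-3p replicate 3 well above the rest. The log2 fold change of 0.42 had an SE of 0.13 (limma adjusted p = 0.0482). Without NC replicate 2 the limma adjusted p was 0.02 and without miR-21-3p replicate 2 it was 0.0498. The call ended without miR-21-3p replicates 1 or 3 (0.116 and 0.193) and without NC replicates 1 or 3 (0.107 and 0.184). It also ended with DESeq2 (DESeq2 adjusted p = 0.0991) and with edgeR and library totals only (edgeR adjusted p = 0.0512). The limma adjusted p was 0.0547 without a filter on low values, 0.0508 with TMM factors and 0.0831 with a replicate block. EIF2B2, for the β subunit, was at 624, 612 and 674 against 560, 564 and 510, and EIF2B1, for the α subunit, at 1160, 1110 and 1200 against 1030, 1100 and 978. Neither pair of groups overlapped, but neither gene was called (limma adjusted p = 0.0553 and 0.0986). Without NC replicate 2 both were (limma adjusted p = 0.0304 and 0.0294). EIF2B4 and the catalytic EIF2B5 had log2 fold changes of 0.05 and 0.03 with overlapping groups, and the 5 eIF2B genes were all on the positive side.

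The 13 subunit genes of eIF3 that were tested had a median log2 fold change of 0.03, with 2 called higher. These are 15.4%, where 6.25% of all genes tested were called higher, and so small a count is not a result about the complex. EIF3B, a scaffold subunit with an RNA recognition fold, was at 4930, 4490 and 4960 with the miR-21-3p mimic and 3860, 4190 and 4130 with the NC mimic. All treated libraries were higher, miR-21-3p replicate 2 being the lowest of them. EIF3B rose by 0.24 (SE 0.05, limma adjusted p = 0.0143). The call held without miR-21-3p replicate 2 (limma adjusted p = 0.0102) and without NC replicate 2 (0.00264), and ended without miR-21-3p replicates 1 or 3 (0.0873 and 0.0672) and without NC replicates 1 or 3 (0.0508 and 0.0628). EIF3I, a β-propeller subunit that binds EIF3B, was at 2160, 2150 and 2290 against 1810, 1940 and 1910. The treated libraries were again all above the controls. EIF3I rose by 0.22 (SE 0.05, limma adjusted p = 0.0157), and its limma adjusted p was 0.0662 and 0.0773 without miR-21-3p replicates 1 and 3 and 0.068 without NC replicate 3.

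The other 11 eIF3 genes tested were not called. EIF3A, the largest subunit, was at 12800, 12300 and 12200 against 12800, 12800 and 13300, with a log2 fold change of -0.06 (limma adjusted p = 0.39). Its groups met at 12800. EIF3J, a loosely held subunit, was at 2510, 2480 and 2600 against 2230, 2480 and 2320, with NC replicate 2 level with miR-21-3p replicate 2 and a limma adjusted p of 0.164 (0.0476 without NC replicate 2). EIF3F had the lowest estimate of the complex, -0.10, with 1390, 1480 and 1400 against 1550, 1480 and 1540. EIF3C was scarce, at 64.2, 65.6 and 70.9 against 36.5, 84.5 and 92.8. Per kilobase of its principal transcript EIF3C reached 22.7 in the NC libraries on average, against 1951 for EIF3A on the same scale, although both subunits belong to the core of the complex. The genome also holds a near-identical copy, EIF3CL, which was not analysed here, so the level of EIF3C is uncertain. A second row named EIF3L was at 0 in all libraries and was not tested.

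**Figure D3:**
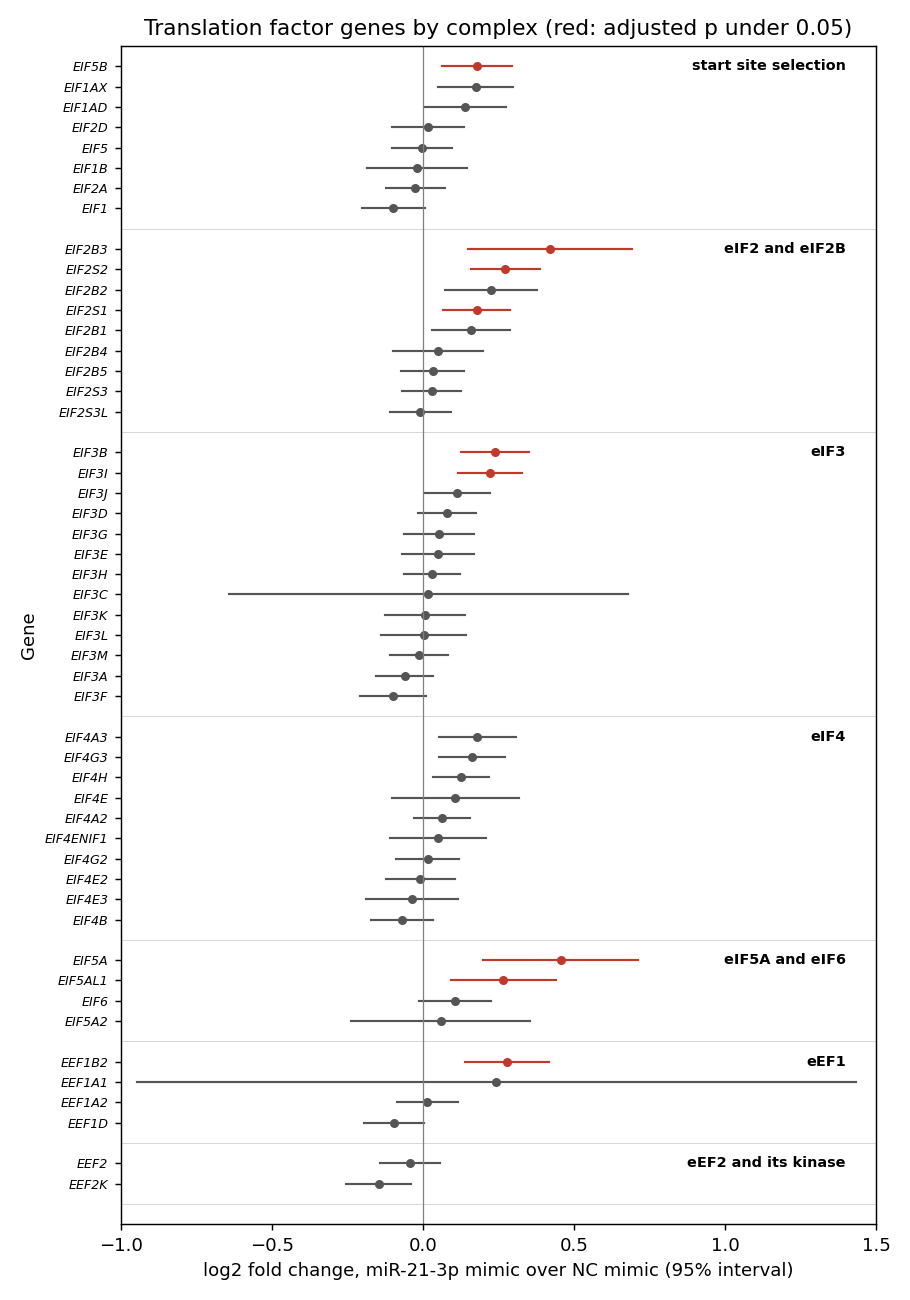
Log2 fold change (horizontal axis, miR-21-3p mimic over NC mimic) with its 95% interval from limma for the 50 tested genes (vertical axis), grouped by complex. Red marks the 9 genes called; EEF1A1 and EIF3C have the widest intervals.

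No gene of the cap-binding and unwinding eIF4 group was called in 10 tested, where 11.1% of all genes tested were called, and the median log2 fold change was 0.06. EIF4A3, a helicase of the exon junction complex, had the largest difference, with 2020, 1970 and 2180 against 1700, 1950 and 1800. NC replicate 2 came close to miR-21-3p replicate 2, and the log2 fold change of 0.18 was not called (SE 0.06, limma adjusted p = 0.066). It was called without NC replicate 2 (limma adjusted p = 0.00863). EIF4G3, a scaffold that links cap and helicase, and EIF4H, a helicase partner, likewise had all treated libraries above the controls without a call (limma adjusted p = 0.0561 and 0.0787). EIF4G3 was at 1690, 1580 and 1720 against 1470, 1490 and 1500, and it was the 1 member gained when miR-21-3p replicate 2 was left out (limma adjusted p = 0.0395). EIF4H was at 4560, 4400 and 4420 against 4030, 4200 and 4040, and it was called without NC replicate 2 (limma adjusted p = 0.0465). EIF4E, the cap-binding protein itself, was at 296, 243 and 290 against 255, 266 and 246. The groups overlapped, and the 95% interval of its log2 fold change ran from -0.10 to 0.32. EIF4A2, EIF4G2, EIF4E2, EIF4E3, EIF4ENIF1 and EIF4B had log2 fold changes between -0.07 and 0.06. EIF4A1 and EIF4G1 were not analysed here. A row named as a pseudogene of the former, EIF4A1P10, was at 2670, 2360 and 2790 against 2120, 2040 and 2220 (log2 fold change 0.29, limma adjusted p = 0.013), and its limma adjusted p was 0.0749 and 0.0646 without miR-21-3p replicates 1 and 3.

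Start-site selection and subunit joining gave 1 call in 8 genes tested, with a median log2 fold change of 0.01. This is 12.5%, where 6.25% of all genes tested were called higher, and 1 call is not a result about the group. EIF5B, the GTPase that joins the large subunit, was at 2660, 2460 and 2670 with the miR-21-3p mimic and at 2190, 2440 and 2250 with the NC mimic. The lowest treated library and NC replicate 2 were almost level. EIF5B rose by 0.18 (SE 0.05, limma adjusted p = 0.0482). This held without miR-21-3p replicate 2 (limma adjusted p = 0.0348) and without NC replicate 2 (0.00693), and ended without miR-21-3p replicates 1 or 3 (0.186 and 0.16) and without NC replicates 1 or 3 (0.148 and 0.174). The EIF5B call also ended with DESeq2 (DESeq2 adjusted p = 0.057) and with edgeR and library totals only (edgeR adjusted p = 0.0521). Its limma adjusted p was 0.0545 without a filter on low values and 0.102 with a replicate block. EIF1AX, which scans with EIF1 for the start codon, was at 1180, 1090 and 1150 against 961, 1050 and 1020. Its groups did not overlap, and it was called only where NC replicate 2 was left out (limma adjusted p = 0.0688 with all libraries and 0.0319 without that one). A pseudogene row held 40.5% of the summed EIF1AX reads. The sum was at 1971, 1809 and 1910 against 1571, 1846 and 1742. There the groups overlapped, with a log2 fold change of 0.14 (limma adjusted p = 0.141). EIF5, the GTPase-activating factor for eIF2, had a log2 fold change of -0.0035, with values of 11600 to 12000 against 11300 to 12200. EIF1 was at 7850, 8070 and 7870 against 8800, 7970 and 8710, a log2 fold change of -0.10 (limma adjusted p = 0.201). NC replicate 2 lay within the treated range for EIF1, and without that library EIF1 was called lower (limma adjusted p = 0.0455).

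EIF5A, which carries the hypusine residue and helps ribosomes past difficult peptide bonds, had the largest log2 fold change among the members with all libraries. It was at 4250, 3830 and 4850 in miR-21-3p replicates 1, 2 and 3 and at 2760, 3600 and 3080 in NC replicates 1, 2 and 3. The groups did not overlap, although both spread widely and miR-21-3p replicate 2 lay close to NC replicate 2. EIF5A rose by 0.46 (SE 0.11, 1.37-fold, limma adjusted p = 0.0383). Without NC replicate 2 the log2 fold change was 0.56 (limma adjusted p = 0.00273) and without miR-21-3p replicate 2 it was 0.54 (limma adjusted p = 0.0189). The call ended without miR-21-3p replicates 1 or 3 (limma adjusted p = 0.0853 and 0.0796) and without NC replicates 1 or 3 (0.102 and 0.125). The log2 fold changes were then 0.46, 0.37, 0.37 and 0.44. It also ended with edgeR and library totals only (edgeR adjusted p = 0.0573). EEF1A1 had a larger log2 fold change than EIF5A without miR-21-3p replicate 1 (0.52) and without NC replicate 1 (0.56). EIF2B3 did so without NC replicate 1 (0.42). EIF5AL1, a close copy of EIF5A elsewhere in the genome, was at 757, 841 and 849 against 617, 761 and 661. Here the groups overlapped, since NC replicate 2 exceeded miR-21-3p replicate 1, and the log2 fold change was 0.27 (SE 0.08, limma adjusted p = 0.0483). Among the left-out libraries the EIF5AL1 call held only without NC replicate 2 (limma adjusted p = 0.00263), with 0.0836, 0.11 and 0.161 without miR-21-3p replicates 1, 2 and 3 and 0.163 and 0.166 without NC replicates 1 and 3. It also ended with edgeR (edgeR adjusted p from 0.0503 to 0.0533) and without a filter on low values (limma adjusted p = 0.0543). Reads shared by the pair could fall to either, and the sum of EIF5A and EIF5AL1 had a log2 fold change of 0.42 (limma adjusted p = 0.0271). EIF6, which keeps the ribosomal subunits apart, was at 1520, 1530 and 1630 against 1430, 1540 and 1380, and was not called (limma adjusted p = 0.229).

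Among the genes with EEF names, the kinase gene EEF2K included, 1 of 6 tested was called. This is 16.7%, where 6.25% of all genes tested were called higher, and 1 call is not a result about the group. EEF1B2 encodes the exchange factor that reloads eEF1A with GTP. Its values were 1300, 1350 and 1390 with the miR-21-3p mimic and 1030, 1220 and 1090 with the NC mimic. All treated libraries were above NC replicate 2, the highest control. EEF1B2 rose by 0.28 (SE 0.06, limma adjusted p = 0.0182), a call that held without miR-21-3p replicate 2 (limma adjusted p = 0.039) and without NC replicate 2 (0.00064) and ended without miR-21-3p replicates 1 or 3 (0.0642 and 0.0807) and without NC replicates 1 or 3 (0.0634 and 0.0868). A pseudogene row took 60.5% of the summed reads, and the sum gave 0.19 (limma adjusted p = 0.0344). EEF1D, another subunit of the same exchange complex, pointed the other way, with 3670, 3850 and 3820 against 4220, 3930 and 3970. All its treated libraries were below the controls, without a call (log2 fold change -0.10, limma adjusted p = 0.193). EEF1G was not analysed here, nor was EEF1E1; a fused name, EEF1E1-MUTED, had at most 1.04 normalized counts and was not tested.

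EEF1A1, which carries aminoacyl-tRNA to the ribosome, varied more within groups than between them. It was at 8280, 17200 and 12800 with the miR-21-3p mimic and at 16100, 7760 and 8800 with the NC mimic. Each group held both high and low libraries, so the log2 fold change of 0.24 came with an SE of 0.44 (limma adjusted p = 0.763). The row of its pseudogene EEF1A1P5 was at 15300, 11600 and 11900 against 11000, 15700 and 16400. This row was high in the libraries where EEF1A1 was low. Summed with 10 pseudogene rows, which supplied 62.2% of the total, EEF1A1 came to 29667, 33911 and 30661 against 32690, 29730 and 30861. The sums spanned a far narrower range than the gene's own row, and their log2 fold change was 0.01 (SE 0.06, limma adjusted p = 0.9). EEF1A2, the isoform known from muscle and neurons, was at 5410 to 5960 against 5490 to 5620 and was not called.

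**Figure D4:**
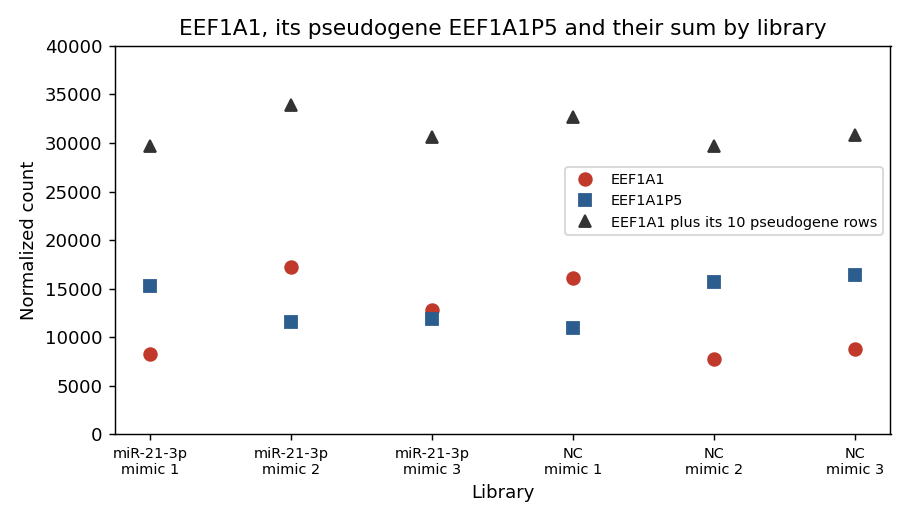
Normalized counts (vertical axis) of EEF1A1, of its pseudogene EEF1A1P5 and of EEF1A1 plus 10 pseudogene rows in each of the 6 libraries (horizontal axis); each point is 1 library. The pseudogene is high in the libraries where the gene is low, while the sum stays between 29667 and 33911.

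EEF2, the translocase, had the most normalized counts per length when each member was counted by its own row. It averaged 22935 per kilobase of its principal transcript in the NC libraries. EEF1A1 was at 2451 over a transcript of 4.441 kb, without the pseudogene rows that held 62.2% of its summed reads. EEF2 was at 68800, 73000 and 69500 with the miR-21-3p mimic and 74000, 71400 and 72300 with the NC mimic. The groups overlapped, and the 95% interval of the log2 fold change ran from -0.14 to 0.05 (limma adjusted p = 0.571). EEF2K, the kinase that inhibits eEF2, was at 3340, 3480 and 3200 against 3670, 3540 and 3880. Every treated library was below every control, and the log2 fold change of -0.15 was not called (SE 0.05, limma adjusted p = 0.0761). Without NC replicate 2 it was called lower, at a limma adjusted p of 0.025.

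Of the 51 member names, 41 had promoter sequence in RefSeq (GRCh38.p14), 8 of them among the called genes. Windows ran from 250 bases before to 50 after each annotated start, and some genes had several. The search used CACGTG, a MYC-type E-box, CCGGAAG, an ETS core, and GGGCGG, an SP1-type GC box, each on both strands. It also took a C within 5 bases of the start followed on the gene's strand by at least 4 C or T, the pattern of mRNAs with a terminal oligopyrimidine tract. Matches of different motifs were allowed to overlap. CACGTG was found for 1 of the 8 called genes and 9 of the 33 not called (8.77% of all 27305 genes with windows), and CCGGAAG for 3 and 8 (12.2% of all). GGGCGG was found for 5 and 25 (48.3% of all), and the pyrimidine tract for 1 and 19 (25.2% of all). The tract was thus found near the start of more of the genes not called, EEF2, EEF1A1 and EIF4B among them, than of those called, where EEF1B2 was the 1 with a match. These counts follow calls already known, were not tested and say nothing of binding.

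The promoters of 6 genes called higher, with EEF2 for comparison, show these features. Each stretch holds 200 bases before the annotated start and 20 from it, on the gene's strand, and capitals mark the motifs above and the pyrimidine tract at the start.
EIF3I (chr1:32222207-32222426, plus strand): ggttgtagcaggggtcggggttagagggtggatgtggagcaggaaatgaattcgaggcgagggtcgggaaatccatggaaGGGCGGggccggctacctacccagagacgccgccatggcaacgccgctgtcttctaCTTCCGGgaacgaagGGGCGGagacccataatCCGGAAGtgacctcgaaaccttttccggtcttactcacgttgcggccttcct
EIF3B (chr7:2354627-2354846, plus strand): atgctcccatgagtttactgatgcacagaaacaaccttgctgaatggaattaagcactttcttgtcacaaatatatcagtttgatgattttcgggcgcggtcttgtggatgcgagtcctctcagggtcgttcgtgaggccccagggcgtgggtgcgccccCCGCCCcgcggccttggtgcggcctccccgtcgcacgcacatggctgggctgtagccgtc
EEF1B2, upstream start (chr2:206159409-206159628, plus strand): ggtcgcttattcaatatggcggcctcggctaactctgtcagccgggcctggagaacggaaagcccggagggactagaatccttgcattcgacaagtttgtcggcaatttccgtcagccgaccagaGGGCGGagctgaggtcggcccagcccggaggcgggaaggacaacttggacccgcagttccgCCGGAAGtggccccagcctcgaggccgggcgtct
EEF1B2, downstream start (chr2:206159695-206159914, plus strand): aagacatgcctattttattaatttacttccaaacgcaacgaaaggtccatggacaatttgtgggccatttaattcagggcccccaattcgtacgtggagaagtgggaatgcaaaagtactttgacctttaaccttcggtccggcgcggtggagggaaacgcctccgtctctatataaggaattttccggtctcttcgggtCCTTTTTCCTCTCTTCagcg
EIF2B3 (chr1:44986576-44986795, minus strand): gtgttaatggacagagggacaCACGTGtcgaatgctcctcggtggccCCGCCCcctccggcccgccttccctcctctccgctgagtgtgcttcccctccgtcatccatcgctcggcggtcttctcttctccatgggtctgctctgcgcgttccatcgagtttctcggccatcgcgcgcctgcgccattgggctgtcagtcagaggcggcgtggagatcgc
EIF2S1 (chr14:67360128-67360347, plus strand): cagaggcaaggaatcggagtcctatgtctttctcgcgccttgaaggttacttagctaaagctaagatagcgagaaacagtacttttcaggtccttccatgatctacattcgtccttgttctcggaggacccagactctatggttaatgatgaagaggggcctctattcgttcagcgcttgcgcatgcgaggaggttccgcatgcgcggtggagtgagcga
EIF5B (chr2:99337189-99337408, plus strand): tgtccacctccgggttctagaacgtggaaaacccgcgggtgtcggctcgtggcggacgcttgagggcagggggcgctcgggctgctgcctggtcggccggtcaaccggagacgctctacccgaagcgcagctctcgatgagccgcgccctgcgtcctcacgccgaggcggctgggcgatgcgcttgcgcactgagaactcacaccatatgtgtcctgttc
EEF2 (chr19:3985444-3985663, minus strand): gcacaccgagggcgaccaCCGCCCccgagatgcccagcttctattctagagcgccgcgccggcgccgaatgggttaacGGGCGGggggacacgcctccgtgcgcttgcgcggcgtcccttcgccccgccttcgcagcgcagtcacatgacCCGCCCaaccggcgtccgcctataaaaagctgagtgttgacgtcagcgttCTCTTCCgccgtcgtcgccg
EIF3I had CCGGAAG on either strand 64 and 32 bases before the start and GGGCGG at 120 and 49 bases. EIF3B had a GGGCGG match 40 bases before, and EIF2B3 a CACGTG 179 bases before. EIF2S1 and EIF5B had none of the 4 patterns in these windows. The upstream start of EEF1B2 had CCGGAAG 14 bases before it, while its downstream start opened on a run of pyrimidines.

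Genes that act on the factors from outside were taken from 7 lists of the same pathway. Of 57 tested, 4 were called higher and 2 lower, and their median log2 fold change was 0.01. The share called, 10.5% (7.02% higher and 3.51% lower), was near the 11.1% (6.25% and 4.85%) of all genes tested, so these counts are not a result about the pathway. EIF4EBP1, a repressor that binds eIF4E, was at 626, 641 and 645 against 482, 542 and 439, with no overlap (log2 fold change 0.39, limma adjusted p = 0.0107). Its limma adjusted p was 0.0547 without miR-21-3p replicate 1 and 0.0661 without NC replicate 3. MTOR, the kinase that inactivates such repressors, was at 1910, 1810 and 1980 against 1520, 1680 and 1540. The treated libraries were again all higher (log2 fold change 0.27, limma adjusted p = 0.0119), and the call ended without miR-21-3p replicates 1 or 3 (0.0669 and 0.062) and without NC replicate 3 (0.0711). TSC1, which restrains MTOR, was at 2950, 2740 and 2890 against 3300, 3200 and 3220 and fell by 0.18 (limma adjusted p = 0.026). That call held without NC replicate 2 (limma adjusted p = 0.0157) and ended without any other library, at 0.0741, 0.0707 and 0.0739 without miR-21-3p replicates 1, 2 and 3 and 0.0729 and 0.102 without NC replicates 1 and 3.

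PPP1CC encodes a catalytic subunit of protein phosphatase 1, which among other tasks removes phosphate from eIF2α. Its values were 5160, 5190 and 5010 with the miR-21-3p mimic and 6320, 6400 and 6680 with the NC mimic. The groups were far apart, NC replicate 2 included. PPP1CC fell by 0.34 (SE 0.04, limma adjusted p = 0.00129) and was called without each of the 6 libraries in turn. None of the 4 eIF2α kinase genes was called. Among release and recycling factors, ABCE1, which splits ribosomes after termination, was at 1300, 1210 and 1310 against 846, 1150 and 952. GSPT1, the release factor eRF3a, was at 4060, 3890 and 4200 against 3460, 3610 and 3560. Neither pair of groups overlapped, with log2 fold changes of 0.38 and 0.19 (limma adjusted p = 0.0266 and 0.0204). Both calls ended without miR-21-3p replicates 1 or 3 (0.0954 and 0.0926 for ABCE1, 0.0972 and 0.0889 for GSPT1) and without NC replicates 1 or 3 (0.0636 and 0.108 for ABCE1, 0.062 and 0.087 for GSPT1). The poly(A)-binding list with its helpers, the list of hypusine and diphthamide enzymes and that of selenocysteine and mitochondrial factors had 10, 7 and 11 genes tested and no call.

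Of the 30 pseudogene rows set aside by name, 25 were tested, 2 were called higher (EIF2S2P4 and EIF4A1P10) and 1 lower, a share near the 11.1% of all genes. The latter was EIF4BP7, at 886, 880 and 801 against 1020, 1010 and 957. All its treated libraries were below the controls (log2 fold change -0.22, limma adjusted p = 0.0362), and the call ended without miR-21-3p replicates 1 or 3 (0.0918 and 0.149) and without NC replicates 1 or 3 (0.103 and 0.0873). EIF4B itself, a helper of the eIF4A helicase, was at 5450, 5680 and 5390 against 5810, 5490 and 6050, with overlapping groups, and the sum with 4 such rows had a log2 fold change of -0.10 (limma adjusted p = 0.181).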

How the data were processed

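The libraries of the 6 HaCaT cultures are taken here as polyadenylated RNA, whereas the methods of the paper call them small RNA libraries. Per the submitters' processing notes, bcl2fastq 2.18.12, cutadapt 1.15, TopHat2 2.1.1, featureCounts of Subread 1.5.2 and DESeq2 were used. The genome build, the annotation and the treatment of reads with several matches are not given in the sources used here. The deposited signal was a count per gene divided by a library size factor and written to 3 significant digits. The design assumed raw counts, but the table held normalized values, so limma 3.58.1 (R 4.3.3, trended and robust variance) was run on log2(value + 1), on which scale all fold changes are given and those of low genes are understated. Genes needed a value of at least 10 in at least 3 libraries, and p-values were adjusted by Benjamini-Hochberg over all 14795 genes tested. Nonzero values under 100 were whole multiples of 1 step per library, within 0.1 step, in 100% of cases. edgeR 4.0.16 (TMM, quasi-likelihood) on the reads recovered from these steps called 1694 of 14792 genes, and DESeq2 1.42.0 was a further alternative. Copies were summed as rows named for pseudogenes of a factor, and EIF5AL1 with EIF5A, and the summed rows then left that fit. Levels per kilobase used the longest principal transcript of GENCODE 29, which need not be the annotation behind the table. The limma fit was tested on simulated data.

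Genes named in the text are the called members, the member of each list with the largest difference, 15 core factors (those with a row) and called genes of the related lists. Others, such as EIF2B2, EIF1, EEF1D, the pseudogene rows and the markers outside the lists, were chosen after their values were seen. The members and lists were chosen with earlier results of these data known. The p-values measure the spread between cultures of 1 cell line.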

Additional observations from a re-analysis of the deposited data

How the results depend on the processing

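The 9 called members kept positive log2 fold changes under all 16 alternatives that held their row (EIF5AL1 was merged with EIF5A in 1). These signs add no support, since the members were picked as higher in the same libraries. No member was called in every alternative. Members called higher numbered 8 with edgeR and DESeq2 size factors (6.10% of all genes called higher), 5 with edgeR and library totals only (5.96%), 7 with DESeq2 (6.13%), 6 without a filter on low values (5.01%) and 9 with a filter at 50 (6.79%). Alternatives chosen after seeing the data gave 9 with a pseudocount of 10 (6.29%), 8 with edgeR and TMM factors (6.12%), 8 with limma and TMM factors (6.10%) and 8 with pseudogene reads summed (6.29%), where EIF5AL1 is part of EIF5A. The cause of the other losses was not tested. With a replicate block, 1090 genes were called against 1641, and 6 members were called higher (4.12% of all genes). The replicate numbers did not pair the samples: same-numbered deviations correlated at -0.08, -0.30 and -0.32 over 12173 genes, and no sample correlated best with its own number.

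With single libraries left out, all genes called ranged from 257 to 3054, members called higher from 0 to 15, members called lower from 0 to 2 (EEF2K and EIF1), and the median log2 fold change of the members from 0.031 to 0.060. These fits had 5 libraries. EIF3C, EIF2B3, EIF5A2 and EIF4E were measured at low counts, with SEs of 0.30, 0.13, 0.14 and 0.10. Whether depth set these was not tested, and EIF5A and EEF1A1 had SEs of 0.11 and 0.44 at far higher counts. Whether reads were split with copies was not tested either. Summing moved the log2 fold change of EEF1A1 from 0.24 to 0.01, of EEF1B2 from 0.28 to 0.19, of EIF2S2 from 0.27 to 0.25 and of EIF5A from 0.46 to 0.42, and the last 3 were still called.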
